A study of Mus musculus with 2 samples.

Results

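Accessible intergenic DNA close to gene starts was examined by DNase-seq, an assay in which nuclei are lightly cut with DNase I and the density of cuts marks DNA that is not wrapped in nucleosomes. A near intergenic site was a merged peak present in both libraries on chromosomes 1 to 19, centred outside every annotated gene body, more than 1 kb and at most 20 kb from the nearest protein-coding gene 5′ end. By this rule, 7017 of the 78595 peaks shared by the libraries on these chromosomes were near intergenic sites (8.93%). Apart from the need for a peak in both libraries, the rule used position only, and no signal value. The libraries came from left cerebral cortex of B6CASTF1/J females, 2 months old, a cross between the C57BL/6J and CAST/EiJ strains. There were 2 libraries, called replicate 1 and replicate 2, and they were taken to be 1 per animal: both have the same donor entry in the labels, but separate biological replicate numbers and separately numbered females. There is 1 group with no treatment, so nothing was compared between conditions. Classes of sites were set side by side without a test, and the SD is that between the 2 libraries.

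Intergenic sequence next to a gene start holds enhancers, which are short stretches bound by transcription factors that raise transcription from a distance, and insulator sites bound by CTCF, a zinc finger protein that stops loop extrusion by cohesin and so helps to set which enhancers meet which promoters. It also holds genes that lie outside protein-coding annotation, such as transfer RNA (tRNA) genes, which RNA polymerase III transcribes from promoters inside the gene. In the cortex, enhancers near immediate early genes such as Fos and Arc are known to take part in their rapid response to neuronal activity, and NEUROD proteins, AP-1 (Fos and Jun dimers), MEF2, SRF and CREB are among the factors that act there.

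Some sites carried a match to such a motif at a place called as a footprint, a short protected stretch inside accessible DNA, in both libraries. For 6 motifs the member of highest signal of that kind is shown as the central 150 bases, plus strand of mm10, with the match in capitals; the match is the reverse complement of the motif for CTCF, AP-1, NEUROD and RFX. The motif of CRE was present in 0.793% of all shared peaks, that of RFX in 0.727% and that of SRF in 0.590%; the values for the others are given with the motif results. The CTCF and CRE (TGACGTCA) matches fell in the same site, 3.60 kb upstream of Sema3b, a secreted axon guidance protein, at chr9:107612756-107612905. The AP-1 (TGAGTCA) site lies 13.9 kb from the start of Zfp213 at chr17:23550286-23550435 and overlaps an annotated tRNA-Arg gene. The NEUROD (CAGATGG) site lies 1.61 kb upstream of Slc17a7, the vesicular glutamate transporter of cortical excitatory neurons, at chr7:45162266-45162415, and also held a CTCF match. The RFX (GTTGCCATG) site lies 9.91 kb upstream of Cln6 at chr9:62828796-62828945. The SRF site lies 12.2 kb past the start of Fos, an AP-1 subunit, at chr12:85486036-85486185.
Sema3b site, CTCF match: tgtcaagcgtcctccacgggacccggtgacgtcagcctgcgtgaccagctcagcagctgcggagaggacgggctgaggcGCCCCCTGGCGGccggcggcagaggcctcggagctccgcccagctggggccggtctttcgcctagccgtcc
Sema3b site, CRE match: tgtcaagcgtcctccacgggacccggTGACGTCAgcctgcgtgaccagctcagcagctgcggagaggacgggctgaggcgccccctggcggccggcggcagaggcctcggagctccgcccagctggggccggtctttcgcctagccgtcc
Zfp213 site, AP-1 match: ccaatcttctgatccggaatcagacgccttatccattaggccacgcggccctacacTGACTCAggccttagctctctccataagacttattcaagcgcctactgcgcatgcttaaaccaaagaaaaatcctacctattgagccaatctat
Slc17a7 site, NEUROD match: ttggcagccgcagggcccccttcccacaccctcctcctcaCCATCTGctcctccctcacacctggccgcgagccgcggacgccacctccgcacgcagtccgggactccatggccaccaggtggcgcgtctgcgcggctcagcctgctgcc
Cln6 site, RFX match: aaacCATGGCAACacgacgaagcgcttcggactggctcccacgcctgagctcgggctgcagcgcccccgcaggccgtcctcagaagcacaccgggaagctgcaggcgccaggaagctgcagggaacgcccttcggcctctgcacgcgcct
Fos +12 kb site, SRF match: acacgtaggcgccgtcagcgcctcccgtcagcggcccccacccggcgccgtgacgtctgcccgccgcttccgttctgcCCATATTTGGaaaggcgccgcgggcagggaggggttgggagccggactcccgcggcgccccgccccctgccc

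The signal of the Sema3b site was 6.52 in replicate 1 and 8.85 in replicate 2, and that of the Slc17a7 site was 5.31 and 6.29. The Fos site had 5.06 and 6.66, the Zfp213 site 5.73 and 6.62, and the Cln6 site 4.07 and 5.01. These sites were chosen for their high signal. Signal is the value the authors gave each peak, a density of cuts that they had scaled to read depth. From the smallest step between values, replicate 1 held about 206 M cuts and replicate 2 about 208 M. Replicate 1 had 128323 peaks and replicate 2 had 119651 peaks in the larger deposited list.

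The sites lay on the upstream side of their gene in 79.4% of cases (5572 of 7017), with a median distance of 8.397 kb. After gene bodies were removed, 178 Mb of the 223 Mb of eligible sequence was upstream. Per Mb of eligible sequence, there were 31.3 members upstream and 32.3 downstream. Of the 4 distance bands, the sides differed most in the closest. Between 1 and 2 kb there were 48.4 members per Mb upstream and 31.5 downstream, although the downstream value rests on 23 sites in 0.731 Mb. Over both sides, density fell from 47.5 members per Mb at 1 to 2 kb to 35.1 at 2 to 5 kb and 28.9 at 5 to 10 kb, and was 29.3 at 10 to 20 kb. The ratio of the first band to the last was 1.62 for shared sites; for the peaks of each library alone it was 1.79 in replicate 1 and 1.68 in replicate 2, or 1.74 ± 0.0795 (SD, n = 2). Beyond 20 kb, intergenic sequence held 16.9 shared sites per Mb.

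**Figure D1:**
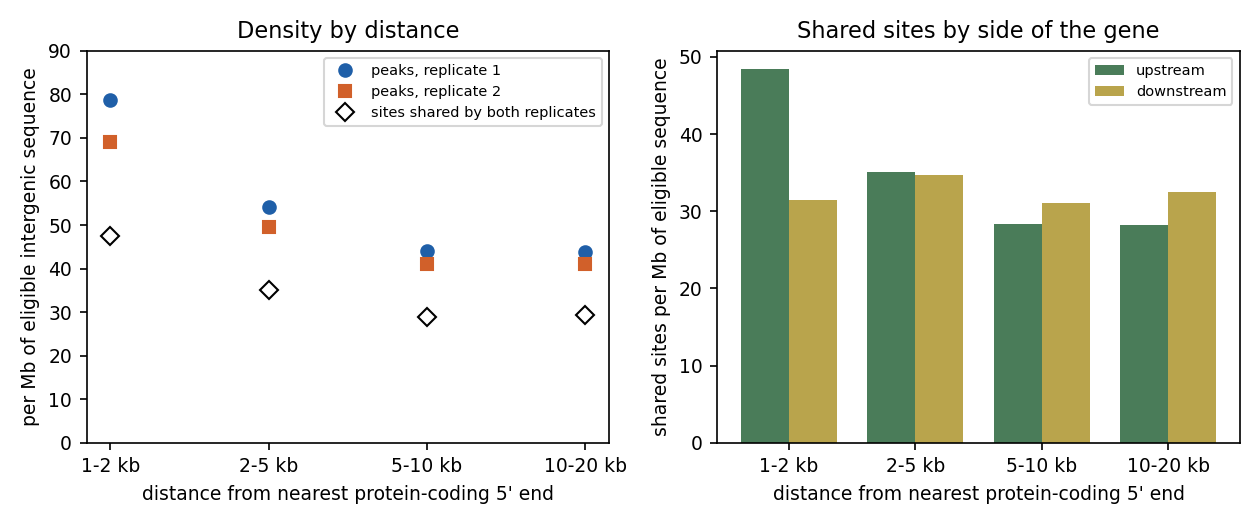
The left panel plots peaks of each replicate (filled symbols) and shared sites (open diamonds) per Mb of eligible intergenic sequence in 4 distance bands, and the right panel plots shared sites per Mb upstream (green) and downstream (yellow) of the gene. Both replicates were highest at 1 to 2 kb, with 78.6 and 68.9 peaks per Mb, and nearly level from 5 kb on.

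Members between genes transcribed in the same direction made up 52.2%, those between divergent genes 35.9% and those between convergent genes 11.8%. Eligible sequence was not measured by orientation, so these shares do not show where sites were denser. The limits of the rule cut a continuous range. Intergenic shared sites from 0.5 to 1 kb had a median signal of 0.856 ± 0.0155 (SD, n = 2), and those from 1 to 1.5 kb 0.873 ± 0.0424 (SD, n = 2). At the outer limit the values were 0.817 ± 0.0837 (SD, n = 2) for 18 to 20 kb and 0.816 ± 0.0513 (SD, n = 2) for 20 to 22 kb. Signal therefore did not step at either limit. The CTCF share was 4.54% from 0.5 to 1 kb and 9.54% from 1 to 1.5 kb.

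Near intergenic sites were stronger than other sites away from promoters. Their median signal was 0.819 in replicate 1 and 0.912 in replicate 2, a mean of 0.866 ± 0.0663 (SD, n = 2). Far intergenic sites, more than 20 kb from a start, had 0.581 ± 0.0203 (SD, n = 2), intronic sites 0.704 ± 0.0162 (SD, n = 2), and promoter sites, within 1 kb of a start, 2.03 ± 0.0166 (SD, n = 2). The gap to the far and intronic classes was larger than the SD between libraries and had the same direction in both libraries. Exonic sites, with 0.808 ± 0.00836 (SD, n = 2), differed from members by less than the members' own SD.

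Signal was similar between the animals. Spearman's rho between libraries over the 7017 members was 0.937, a description over sites that share libraries and not a test. The members varied widely: the 10th and 90th percentiles were 0.381 and 2.19 in replicate 1, and 0.394 and 2.71 in replicate 2. After centring on all shared peaks, 98.9% of members differed by less than 2-fold between libraries, beside 99.2% of all shared peaks, whose rho was 0.941. A member had to be called in both libraries, so the rule itself favours agreement. Of all 13311 near intergenic merged peaks, 52.7% were shared, beside 75.05% of promoter peaks, 48.8% of far intergenic peaks and 46.8% of intronic peaks. The peaks of 1 library only were weak, with a median signal of 0.305 for the 3628 of replicate 1 and 0.355 for the 2666 of replicate 2.

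**Figure D2:**
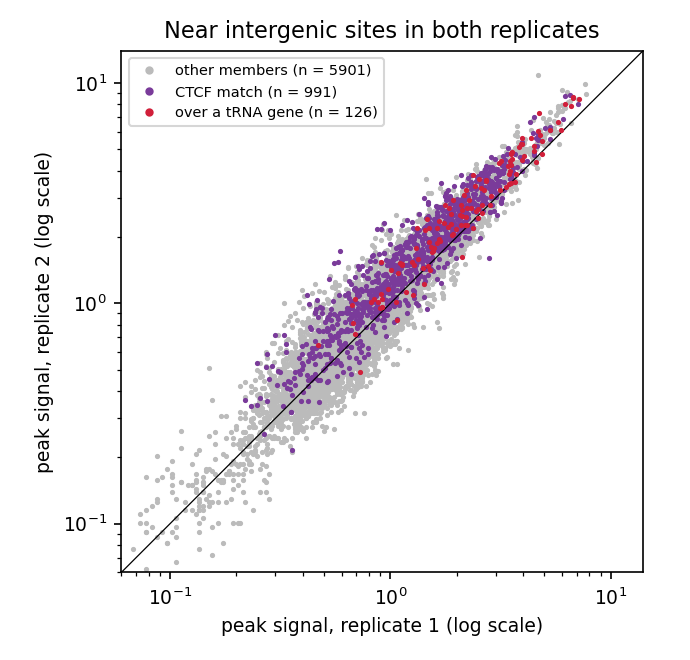
Each point is 1 near intergenic site, with its signal in replicate 1 on the horizontal and in replicate 2 on the vertical axis, both on log scales, and the line marks equal values. The sites with a CTCF match (purple, n = 991) sit mostly above the line, and those over a tRNA gene (red, n = 126) lie toward the upper end.

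Footprints were frequent. At least 1 was called in both libraries in 6122 members (87.2%), and the share over all shared peaks of these chromosomes was 83.5%. Far intergenic sites had 81.3%, intronic sites 82.4% and promoter sites 86.2%. Members held 10.3 ± 0.404 footprints per kb (SD, n = 2), far intergenic sites 8.81 ± 0.464 (SD, n = 2) and promoter sites 11.99 ± 1.18 (SD, n = 2). Median GC content of the central 150 bases was 52.7% in members, 51.3% in far intergenic and 65.3% in promoter sites. The ratio of observed to expected CpG was 0.296, 0.266 and 0.810, so members resembled distal rather than promoter sequence in base composition.

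Of the 15 motifs searched, CTCF had the largest difference in percentage points between members and far intergenic sites. Its pattern was present in 991 members (14.1%), beside 6.59% of all shared peaks, 7.70% of far intergenic sites, 7.04% of intronic sites and 1.88% of promoter sites. In windows of 150 bp placed 900 to 1500 bp from the centre of a member, outside every merged peak, it was present in 0.0583%. Matches sat centrally, with a median distance of 8.5 bp from the centre of the site. A match counted as inside a footprint when 50% or more of its bases were covered. This held for 94.9% of matches in replicate 1 and 97.5% in replicate 2, whereas footprints covered 19.5% and 20.1% of the bases searched. The share with a match was lowest near the gene, 9.83% at 1 to 2 kb, and 14.3%, 13.2% and 15.6% in the next bands. Past 20 kb it fell steadily, from 12.5% at 20 to 30 kb to 5.55% at 100 to 500 kb.

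Members with a CTCF match were stronger. Their median signal was 1.48 ± 0.233 (SD, n = 2), and that of the other 6026 members was 0.801 ± 0.0428 (SD, n = 2). Since the share with a match rises with signal, it was recomputed for the other classes at the members' own mix of signal deciles. It was then 11.96% for far intergenic and 9.49% for intronic sites, beside 14.1% for members, so most of the gap to far intergenic sites closed and a smaller one remained. Of the 986 members with exactly 1 match, 49.2% pointed toward the nearest gene start (Wilson 95% interval 46.1% to 52.3%, counting error only). By side, the share was 51.2% of the 742 upstream of their gene (interval 47.6% to 54.8%) and 43.0% of the 244 downstream (interval 37.0% to 49.3%). The difference between the sides was not tested. By orientation of the flanking genes, the match was present in 16.8% of members between convergent genes, 13.97% between genes in tandem and 13.5% between divergent genes.

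The libraries differed more at members with a CTCF match than at the other members. Replicate 2 was higher in 870 of the 991 members with a match (87.8%), with a median log2 ratio of replicate 2 to replicate 1 of 0.32, and in 65.9% of the other members, with a median of 0.14. The same was seen outside the members: the median was 0.35 at far intergenic and 0.31 at intronic sites with a match, and 0.11 and 0.07 at those without. Members with a match were also the stronger ones (median signal 1.48 beside 0.801), and the groups were not matched on signal here. Over all members, replicates 1 and 2 had 0.381 and 0.394 at the 10th percentile, and 2.19 and 2.71 at the 90th. The part of signal in this difference was not tested. With 1 library per animal, an animal and its library cannot be told apart.

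**Figure D3:**
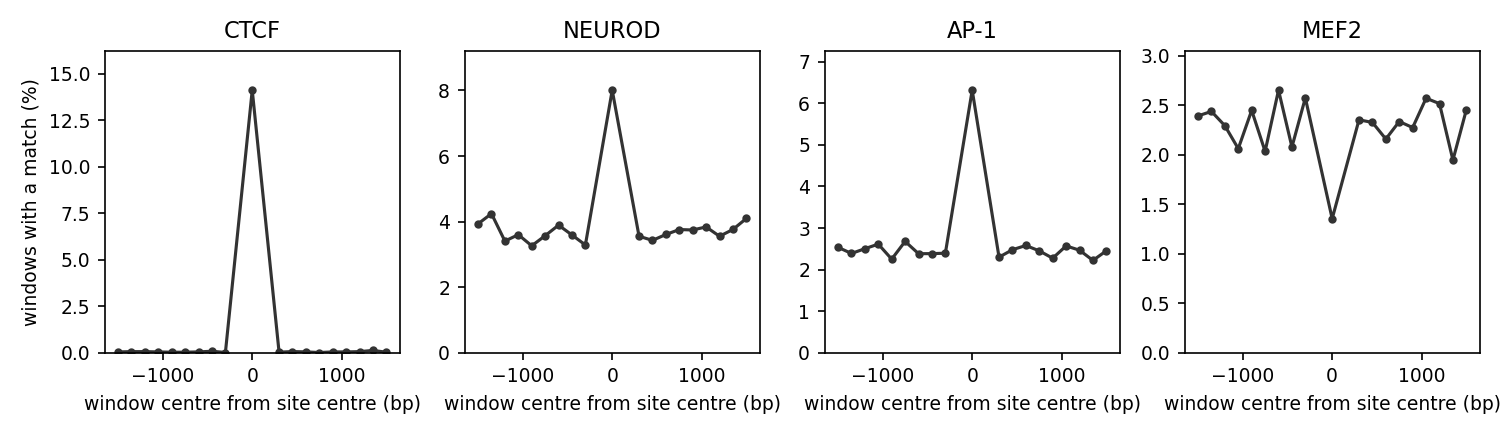
The 4 panels plot the percent of 150 bp windows with a match (vertical axis, a scale of its own in each panel) against the distance of the window from the centre of a member (horizontal axis, bp); windows that touch a merged peak were left out except at the centre, and those at 150 bp, nearly all of which touch one, are not drawn. CTCF rises from near 0 to 14.1%, NEUROD to 8.01% and AP-1 to 6.31%, and MEF2 falls to 1.35%.

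NEUROD and AP-1 matches behaved differently from each other. The NEUROD motif was present in 562 members (8.01%), beside 7.15% of all shared peaks and 9.31% of far intergenic sites, and in 3.75% of flanking windows. It lay in a footprint for 42.4 ± 3.05% of matches (SD, n = 2). The AP-1 motif was present in 443 members (6.31%), beside 5.74% of all shared peaks and 7.63% of far intergenic sites, and in 2.43% of flanking windows. Of its matches, 15.9 ± 1.07% (SD, n = 2) lay in a footprint, below the 19.8 ± 0.430% of bases that footprints covered (SD, n = 2). For neither motif did members stand above far intergenic sites. MEF2, an AT-rich motif, was present in 1.35% of members, 1.37% of far intergenic sites, 1.05% of all shared peaks and 2.34% of flanking windows, and GC content was 53.3% at the centres and 45.8% in the flanks; the part of base composition was not tested.

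CRE, RFX, NRF1, EGR and NFI motifs were often footprinted but rare. CRE, the site of CREB and ATF proteins, was present in 32 members (0.456%), beside 0.793% of all shared peaks. It lay in a footprint for 78.1 ± 4.42% of matches (SD, n = 2). The RFX motif was present in 45 members (0.641%), beside 0.727% of all shared peaks. Of its matches, 53.9 ± 6.93% lay in a footprint (SD, n = 2). The NRF1 motif (GCGCATGCG) was present in 20 members (0.285%), beside 0.654% of all shared peaks, with 68.5 ± 2.62% (SD, n = 2). The EGR motif (GCGTGGGCG) was present in 14 members (0.1995%), beside 0.355% of all shared peaks. Of its 14 matches, 85.7% lay in a footprint in replicate 1 and 64.3% in replicate 2. Of the 4 NFI matches, 3 lay in a footprint in both libraries. The SP/KLF motif GGGCGGG, common in promoters, was present in 5.40% of members, 29.3% of promoter sites and 10.05% of all shared peaks. By contrast, 14.8 ± 3.31% of SRF matches and 7.29 ± 1.47% of MEF2 matches lay in a footprint (SD, n = 2). Over the 15 motifs searched on both strands, 2613 members (37.2%) held at least 1 match, and in 112 members matches overlapped each other. The share of all shared peaks with at least 1 match was not computed. A match describes the letters only.

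Transfer RNA genes made up a small but strong subset, which was chosen after its values were seen. RefSeq annotates 386 tRNA genes on these chromosomes, and the GENCODE annotation used lists no nuclear tRNA genes, so a tRNA gene was no gene body under the rule. A member overlapped one in 126 cases, 1.80% of members, beside 0.288% of all shared peaks; far intergenic sites had 43 such peaks and promoter sites 32. Members over tRNA genes had a median signal of 2.14 in replicate 1 and 2.56 in replicate 2, and the other members had 0.809 and 0.898. The 100 strongest members included 19 of them, and 20 tRNA products were represented, tRNA-Leu most often with 14 overlaps. In the median tRNA site, 20.9% of the 31-base words occurred elsewhere in the genome, and in the median of the other members none did; the part of repeated sequence in these signals was not tested.

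The strongest members were a mixed set. The site of highest mean signal lay at chr6:117879441-117879680, 17.5 kb past the start of the zinc finger gene Zfp239, with 7.67 in replicate 1 and 9.87 in replicate 2. The next lay 3.84 kb upstream of Gpi1, which encodes a glycolytic enzyme, with 7.69 and 8.94, and only 69 bp from an annotated noncoding transcript start. A site 1.33 kb upstream of Ptma had 7.10 and 8.49, and one 4.95 kb upstream of Txn2, a mitochondrial thioredoxin, had 6.34 and 9.10. Of the 10 strongest, 3 lay over tRNA genes: 7.85 kb upstream of Pllp (7.18 and 8.44), 12.9 kb upstream of 1810010H24Rik (6.76 and 8.64) and 4.48 kb upstream of Zfp692 (6.73 and 8.56). Of these 10, the site 11.2 kb upstream of Hic2 was the least even between libraries, with 4.69 and 10.9, and 37.7% of its words were repeated. A site 4.37 kb upstream of Nemf had 6.04 and 9.27 and lay 50 bp from a noncoding start, and the Sema3b site completed the list. With sites of more than 10% repeated words left out, those upstream of Ppp1r1b (7.11 and 8.06), which encodes DARPP-32, and Trpv4 (6.21 and 8.75), a cation channel, entered it; both held a CTCF match. Over all members, 302 (4.30%) lay within 1 kb of an annotated transcript start of some kind.

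At least 1 member had 4541 of the 20807 protein-coding genes as its nearest gene, that is, 21.8% of all protein-coding genes. Single sites were the rule: 3038 genes had 1 member, 959 had 2 and 100 had 5 or more. A shared peak lay within 1 kb of the 5′ end in 61.8% of all protein-coding genes. It did so in 60.4% of genes with no member, 65.8% with 1, 67.9% with 2, 69.1% with 3 or 4, and in 80 of the 100 genes with 5 or more. Genes with no member also had less eligible sequence, a median of 6.415 kb beside 16.7 kb for genes with 1. Among genes with at least 10 kb of eligible sequence, the share was 49.6% with no member, beside 65.9% with 1 member, 66.9% with 2, 67.3% with 3 or 4, and 80.5% of the 87 genes with 5 or more.

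Abt1, on chromosome 13, had the most members, 16, of which 12 overlapped tRNA genes; signal ranged from 0.557 to 3.95 in replicate 1 and from 0.471 to 4.45 in replicate 2. Pou3f2, a POU transcription factor of upper-layer neurons, had 12, none over a tRNA gene, from 1.35 to 11.2 kb away, with medians of 1.06 and 1.05. Cbx8, a Polycomb protein, had 11 with medians of 0.722 and 0.620. The 11 sites of Gm20219 and the 11 of Prnd were weak, with medians of 0.213 and 0.207 for the former and 0.136 and 0.158 for the latter. Some sites of Gm20219, Prnd and Ttc12 touch a neighbour, since peaks that touch without overlap were kept apart. Coro2b, a coronin, had 9 upstream sites, of which the one 13.0 kb away had a CTCF match and 5.04 and 6.25. Trim27 had 9 sites, 4 over tRNA genes, and Ttc12 and Sec61a1 had 9 each with medians under those of all members (0.228 and 0.163, and 0.223 and 0.192).

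Immediate early genes, transcribed within minutes of neuronal activity, had many near intergenic sites. Of the 20 on the list, 15 had a member (75%), beside 21.8% of all protein-coding genes. The 49 sites assigned to them came to 13.3 per 100 kb of the list's eligible sequence, beside 3.15 for all protein-coding genes. The peaks of each library gave 20.4 and 17.7 per 100 kb beside 4.82 and 4.45, a gap larger than the spread between libraries. The 5 without a member were Bdnf, Dusp1, Egr2, Jun and Nr4a2, of which Dusp1 had no eligible sequence and Jun had 0.663 kb. All 20 had a shared promoter peak, beside 61.8% of all protein-coding genes.

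Fos had 8 members, 3 upstream and 5 downstream, and they were of very unequal strength. The strongest, the SRF site printed above, lay 12.2 kb downstream of the 5′ end (5.06 and 6.66). The next lay 18.4 kb upstream at chr12:85455101-85455780 (3.85 and 4.22), held 12 footprints in replicate 1 and 9 in replicate 2, and overlaps an element that RefSeq lists as VISTA enhancer mm260. The other 6 ranged from 0.441 to 1.86 in replicate 1 and from 0.408 to 1.67 in replicate 2. One of these, 13.991 kb downstream, held a CTCF match, and one, 5.85 kb upstream, a NEUROD match. The ranking of the 2 strongest was the same in both libraries. The central 150 bases of the upstream site, at chr12:85455366-85455515, are given as those of the second strongest site; no motif searched matched there, which says only that these letters are absent from the window.
Fos distal upstream site: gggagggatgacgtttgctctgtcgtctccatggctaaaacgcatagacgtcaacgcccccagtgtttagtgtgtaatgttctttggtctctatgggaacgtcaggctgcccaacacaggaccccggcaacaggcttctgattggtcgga

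Arc, a cytoskeleton-associated protein of active synapses, had 7 members, 3 upstream and 4 downstream, with a narrower range. The strongest lay 6.61 kb upstream at chr15:74678941-74679420, with 2.02 in replicate 1 and 2.15 in replicate 2. Sites 4.82 and 3.94 kb upstream had 1.32 and 1.03, and 1.17 and 1.38. The 4 downstream sites ranged from 0.862 to 1.24 in replicate 1 and from 0.682 to 1.29 in replicate 2, and 21.7% of the words of the one 3.88 kb away were repeated. Only the 6.61 kb site was above the other 6 in both libraries. Its central bases, chr15:74679106-74679255, held no match to the motifs searched.
Arc distal upstream site: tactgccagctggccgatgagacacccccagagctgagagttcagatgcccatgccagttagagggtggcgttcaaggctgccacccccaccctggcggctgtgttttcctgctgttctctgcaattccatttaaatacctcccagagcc

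**Figure D4:**
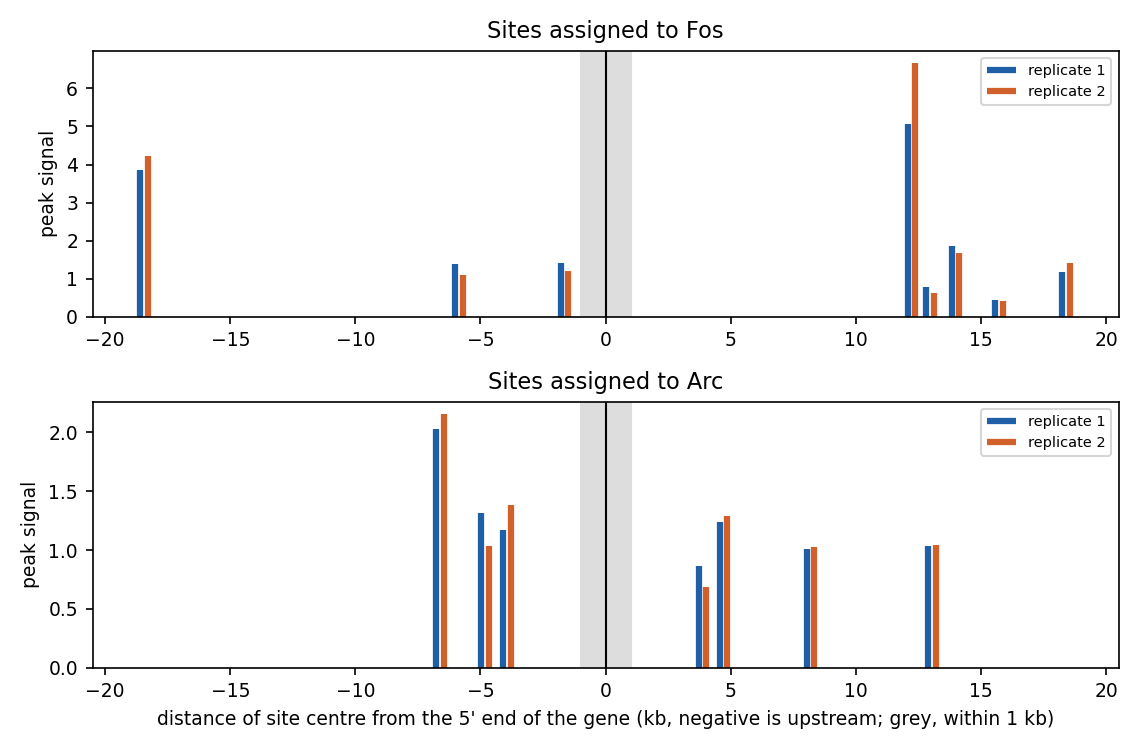
Bars give the peak signal (vertical axis) of each site assigned to Fos (top) and Arc (bottom) in replicate 1 (blue) and replicate 2 (orange), by distance from the 5′ end of the gene in kb (horizontal axis, upstream negative). Fos has 2 sites above 3.8 in both replicates, and no site of Arc exceeds 2.16.

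Npas4, an activity-induced transcription factor, had 5 members. Its strongest pair lay 11.6 and 11.985 kb upstream, with 2.83 and 3.30, and 2.54 and 3.45; the former held SRF and RFX matches. Nr4a1, an orphan nuclear receptor, had 3 upstream members at 7.84 kb (3.10 and 4.07), 13.4 kb (3.62 and 3.66) and 14.9 kb (1.32 and 1.31). Egr1, a zinc finger factor, had 3 upstream members at 4.37 kb (1.58 and 1.75), 8.04 kb (0.833 and 0.917) and 9.51 kb (2.09 and 1.84, with a CTCF match). Junb, an AP-1 subunit, had 1 member 1.28 kb upstream, with 2.85 and 3.64. Btg2, an antiproliferative early gene, had 7 members, of which 6 overlap elements that RefSeq lists as enhancers. All of these except the site 14.021 kb upstream lie in the same element, VISTA enhancer mm1445. Ier2 had a strong single site 1.24 kb upstream (4.31 and 4.74). Nr4a3 and Egr3 had 2 upstream members each, ranging from 2.62 to 3.98 and from 1.71 to 4.62 in replicate 1, and from 2.02 to 4.04 and from 1.11 to 4.10 in replicate 2. Dusp6 and Fosl2 had 3 upstream members each, Fosb had 2 downstream, and Egr4 and Nptx2 had 1 each.

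Telencephalic transcription factors had a similar density, with 10 of 18 genes, 38 members and 13.4 per 100 kb. The peaks of each library gave 20.8 ± 0.996 per 100 kb, beside 19.03 ± 1.92 for immediate early genes (SD, n = 2). After Pou3f2, Neurod2 had 7 (medians of 0.683 and 0.595, the highest 3.70 and 3.31), Bhlhe22 had 4 and Neurod6 had 3. None of the 38 sites had a CTCF match, beside 14.1% of all members and 6.59% of all shared peaks. The lists of astrocytes, endothelial cells and pericytes, hepatocytes, muscle and ribosomal proteins, with 4 to 16 sites each, also had none. Each of the other lists had 1 to 3 sites with a match. Lists of cortical cell types had lower densities of members. Over all protein-coding genes, 21.8% had a member. Excitatory neurons had 5.11 members per 100 kb (7 of 18 genes), inhibitory neurons 4.004 (7 of 18) and astrocytes 4.66 (6 of 16). Oligodendrocytes had 7.15 (9 of 17) and microglia 6.63 (8 of 16). Endothelial cells and pericytes had 1.86, a density below that of all genes, although their 4 of 16 genes (25%) were near the share of all genes. In the peaks of each library, excitatory genes had 7.86 ± 2.22 and inhibitory genes 8.74 ± 5.15 per 100 kb (SD, n = 2), so the libraries of 1 list differed more than the list means did. Promoter peaks were shared at 15 of 18 excitatory genes (83.3%) and 10 of 18 inhibitory genes (55.6%), the latter close to the 61.8% of all genes. Cck, a neuropeptide, had 5 sites, and Camk2a and Camk2b, which encode subunits of a synaptic kinase, 2 each. Gria1, Gria2, Grin1, Grin2b, Homer1 and Syt1 were among the excitatory genes with none. Among inhibitory genes, Calb2, a calcium-binding protein, had 3 weak sites and Sst, the neuropeptide somatostatin, had 2 (2.45 and 2.12 for the higher in each library) without a shared promoter peak. Kcnc1, a potassium channel, had 1 site with 2.50 and 3.15. Gad1, Gad2, Slc32a1, Dlx1, Dlx2, Lhx6 and Pvalb were among the inhibitory genes with none, and Gad1 and Dlx1 had no eligible sequence.

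Among glial genes, the myelin gene Mbp had 4 upstream sites, with medians of 1.28 and 1.47, and Mog had 1 at 5.44 kb with 3.80 and 4.38 although no promoter peak was shared. Cldn11, a tight junction protein of myelin, had 2 sites. Mag, Cnp and Sox10 were among the oligodendrocyte genes with none. Each astrocyte gene with a site had 1; the highest was at Clu (2.19 and 2.77), which encodes clusterin, followed by Gja1 (1.67 and 2.37), which encodes connexin 43. Aqp4, Slc1a3 and Sox9 were among the astrocyte genes with none. Of microglial genes, C1qb, a complement subunit, had 3 sites and Trem2 had 1 (2.16 and 2.60). Csf1r, P2ry12, Spi1, Itgam, Irf8, Mertk, C1qa and Tyrobp had none, of which P2ry12 and Irf8 had no eligible sequence. In bulk tissue, fewer cells of a type and less accessibility per cell cannot be told apart.

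The lists of other tissues were uneven. Hepatocyte genes had 1.69 members per 100 kb, and 3 of 18 had a member (16.7%), near the 21.8% of all protein-coding genes. The peaks of each library came to 2.32 ± 0.298 per 100 kb for hepatocyte genes and 3.15 ± 0.262 for endothelial cells and pericytes, beside 4.63 ± 0.262 for all genes (SD, n = 2). No hepatocyte gene had a shared promoter peak. Skeletal and heart muscle genes had 8.09 members per 100 kb (9 of 18 genes), although 4 of the 18 had a shared promoter peak. The microglial list was similar in this, with 6.63 members per 100 kb and a shared promoter peak at 4 of 16 genes. For muscle genes, the peaks gave 12.1 per 100 kb in replicate 1 and 9.61 in replicate 2. The values were 9.43 and 6.29 for excitatory genes, and 12.4 and 5.10 for inhibitory genes. The muscle values were thus above the excitatory ones in both libraries and inside the range of the inhibitory ones. Their sites were of moderate strength: Casq2 had 3 (medians of 0.547 and 0.874), Mb, the myoglobin gene, 3 (0.857 and 0.735) and Myod1, a muscle-determining factor, 2 (0.935 and 1.23). Epithelial genes had 2.83 per 100 kb, with the highest signal at Krt8 (2 sites, the higher with 2.77 and 3.86). Ribosomal protein genes, which all tissues use, had 5.62 per 100 kb from 6 sites, 3 of them at Rpl19. A list is a small number of genes, each count rests on its nearest-gene assignment, and no list was tested.

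**Figure D5:**
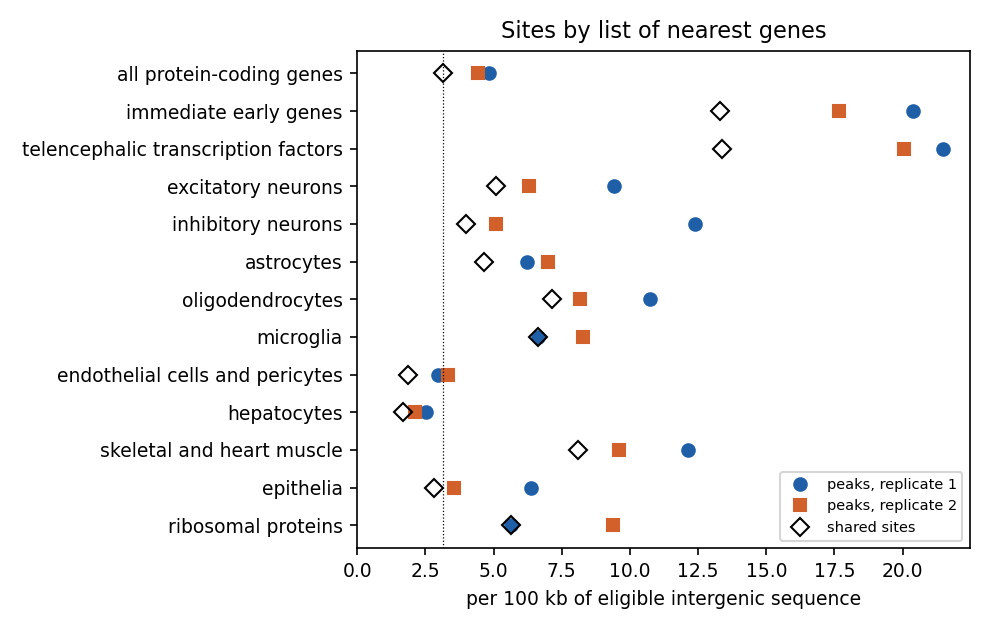
Points give the peaks of replicate 1 (blue circles), the peaks of replicate 2 (orange squares) and the shared sites (open diamonds) per 100 kb of eligible intergenic sequence (horizontal axis), by the list to which the nearest gene belongs; the dotted line marks shared sites of all protein-coding genes, 3.15. Immediate early genes and telencephalic transcription factors lie at 13.3 and 13.4, and hepatocytes at 1.69.

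Elements listed as enhancers by RefSeq overlapped 36 members (0.513%), a share close to the 0.541% of far intergenic and 0.511% of intronic sites. Strong examples lay 9.71 kb past the start of Bhlhe41, a circadian bHLH repressor (5.69 and 6.01, mm1548), 18.4 kb upstream of Fos, 14.021 kb upstream of Btg2 (3.63 and 3.82) and 12.9 kb upstream of the proto-oncogene Ski (2.83 and 3.55, mm318). Nanog, a pluripotency factor, had 1 weak site over a listed enhancer fragment 4.72 kb upstream, with 0.388 and 0.432.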

How the data were processed

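DNase-seq libraries of 2 mice were used, 1 group. Per the deposited file descriptions, the authors aligned reads to mm10 and called peaks and footprints on each library alone; for aligner and callers, names and versions were not given in the sources used here. Deposited peak values are signal (cut density scaled by the authors to read depth). The deposited footprints carry a q-value of 0.01, and the deposited cut-rate tables list q-values below 0.05. Each member held a listed stretch in both libraries, and 4690 were below 0.001 in both.

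Larger peak lists were merged (1 bp overlap) and annotated with GENCODE M21; sequence, tRNA genes and enhancers came from RefSeq GRCm38.p6, the same build, read with Python 3.11.15, numpy 2.4.6, pandas 2.3.3 and numba 0.67.0. Peaks that touch without overlap stayed separate sites. A library's highest peak gave its signal in a site. Eligible sequence was non-N sequence outside gene bodies, assigned to the nearest protein-coding 5′ end. Motifs were exact pattern matches in the central 150 bp; CTCF, MEF2 and SRF patterns had ambiguous letters. Functions were tested on simulated data. Precision is limited by the number of animals; depth was about equal. The reference is C57BL/6J, and reads carrying CAST/EiJ differences can be lost in alignment; alleles were not analysed here.

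The members, the 12 gene lists (211 of 212 entries found as protein-coding genes on the chromosomes used) and the motifs were chosen with earlier results of these data known. Named were the 10 members of highest signal with and without repeated sequence, the 10 genes with most members, up to 4 genes per list with most members, every immediate early gene, all members of Fos, Arc, Npas4, Egr1, Nr4a1 and Junb, and the strongest footprinted match of 8 motifs. That rule gave sequences for all Fos and Arc members and 8 motifs. A selection is printed, without the MEF2 and NFI sites. For the motifs, members on chromosome 18 or with more than 10% repeated words were left out. Some genes that the rule names are not reported here. Other examples were chosen after their values were seen. Alternatives were the smaller peak lists, 50 percent overlap, each library alone, other gene bodies and starts, a limit on repeated words, and removal of tRNA sites, which was chosen after seeing the data.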

Additional observations from a re-analysis of the deposited data

How the results depend on the processing

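No paired analysis was possible because the series has 1 group. With the smaller peak lists, members numbered 4459, of which 3512 lay upstream, 250 held an AP-1 match and 356 a NEUROD match; median signal was 1.28 and the share with a CTCF match 18.7%. Each library alone gave 9906 to 10731 sites, of which 7855 to 8470 lay upstream, a ratio of sites per Mb of 1.68 to 1.79, a median signal of 0.562 to 0.668 and a CTCF share of 9.45% to 11.1%. With gene bodies of protein-coding genes only, the ratio was 1.73. With the whole merged peak searched, 701 members held an AP-1 match. The other classes of sites were not recomputed under these alternatives. Of the genes with a member, 3 of the 12 lists changed by over 1.5 times with the smaller lists (inhibitory neurons 4, endothelial cells and pericytes 1, epithelia 3) and 1 with protein-coding gene bodies (hepatocytes 5). Requiring 50 percent overlap, distance from every transcript start, at most 10% repeated words or no tRNA site left 6866, 6715, 6497 and 6891 members, and no count moved by over 1.5 times. The percent upstream was 78.8% with the smaller lists, 80.1% with protein-coding gene bodies, 79.7% away from every transcript start, 79.8% without repeated sites and 78.9% to 79.3% with each library alone. The share with a footprint in both libraries was 94.6% with the smaller lists, 87.9% with 50 percent overlap, 86.9% with protein-coding gene bodies, 87.7% without repeated sites and 78.0% to 81.8% with each library alone, on that library's footprints. Peaks of 1 library only had low signal; the part of depth was not tested.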

Other observations

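Some near intergenic sites were close together: 2087 members (29.7%) had another member within 2 kb, although the median distance to the next was 8.60 kb. The share within 2 kb was not computed for the other classes of sites. Peaks that touch without overlap stayed separate, so some neighbouring members are parts of 1 accessible stretch. Members that touch another were not counted. Repeated sequence was more common in members than in other classes. More than 10% of words were repeated in 520 members (7.41%), beside 4.90% of far intergenic, 3.31% of intronic and 3.69% of promoter sites. Of the peaks seen in replicate 1 only, 9.21% held a stretch with q below 0.05 in replicate 2, and of those seen in replicate 2 only, 17.0% held one in replicate 1. The NFI motif was present in 4 members (0.0570%, beside 0.0509% of all shared peaks), 1 of them 2.22 kb upstream of Plcb2 (2.26 and 2.13), which also held a CTCF match.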
